A study of Mus musculus with 123 samples.

Results

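The 8 genes described here code for FGF ligands (Fgf4, Fgf3 and Fgf8), the FGF receptors (Fgfr1, Fgfr2, Fgfr3 and Fgfr4) and the receptor adaptor Frs2, and they were picked by gene symbol from the 29022 genes of the deposited table. Fibroblast growth factors are secreted ligands that bind receptor tyrosine kinases together with heparan sulfate, and the activated receptor phosphorylates the adaptor Frs2, which recruits Grb2 and Sos and switches on the RAS, MEK and ERK kinases. In the mouse blastocyst, Fgf4 made by epiblast cells of the inner cell mass (ICM) acts through Fgfr1 and Fgfr2 to turn neighbouring cells into primitive endoderm, and it also keeps the trophoblast dividing. Fgf4 is a textbook target of the transcription factors Oct4 (gene Pou5f1) and Sox2.

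RNA from single mouse embryos of the strain B6C3F1 was sequenced from the 3′ end, with a molecular identifier on each molecule, so that each value is a number of distinct molecules (UMIs). The embryos belonged to 16 groups. In the Oct4 line, heterozygous males with a Pou5f1 knockout allele labelled by the mKO2 reporter were mated with flox/flox; ZP3-Cre females, in which Cre acts in the growing oocyte, and the Sox2 line was made in the same way with a Sox2 knockout allele labelled by EGFP. Fluorescent offspring are maternal-zygotic knockouts (KO), and the unlabelled offspring (Ctrl) also lack the maternal gene product and keep 1 intact paternal allele, so the comparison of KO with Ctrl starts from a maternal knockout in both.

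Each line had 8 Ctrl and 8 KO embryos as whole morulae (E2.75), as early ICM (E3.75) and as late ICM (E4.5). Embryos of a further kind, labelled Ctrl_MWT and called MWT here, came from mothers with the gene intact. They numbered 7 morulae, 5 early ICMs and 8 late ICMs in the Oct4 line and 7 early ICMs in the Sox2 line. The embryos used for ICM were collected at E2.5 and grown with 1 μM PD0325901, an inhibitor of the kinase MEK that lies downstream of the FGF receptors, before the trophectoderm was removed by immunosurgery. The labels of the early Oct4 MWT ICMs name no treatment. Stage, culture, inhibitor and isolation therefore change together between morula and ICM and cannot be told apart, and no ICM is labelled as grown without the inhibitor. Early and late Oct4 MWT ICMs have a stage in the title that differs from the one in the source name. The title was used, and the stage of these 13 embryos is uncertain.

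The embryos held between 525755 and 1344035 UMIs. Levels are given in CPM, the UMIs of a gene scaled to the same total in every embryo, and 1 UMI was worth between 0.744 and 1.90 CPM. The knocked-out gene followed the labels: Pou5f1 had 3, 7 and 1 UMIs over the 8 Oct4-KO morulae, early ICMs and late ICMs, against 163, 550 and 236 in Ctrl, and Sox2 was at 1.57, 23.6 and 16.1 CPM on average in Sox2-KO against 13.8, 109 and 183 CPM in Ctrl. Whether the counted 3′ ends lie in the deleted parts was not tested. Sox2 itself was lower in Oct4-KO late ICMs, at 96.1 CPM against 314 CPM in Ctrl. Markers of other cell types were counted beside the members. The summed level of 13 trophectoderm markers was 2320 to 5014 CPM in Oct4-KO late ICMs against 455 to 1792 CPM in Ctrl, and 1001 to 2505 CPM against 150 to 679 CPM in Sox2 early ICMs. The sums overlapped in Oct4 early ICMs (881 to 1667 CPM in KO, 433 to 1731 CPM in Ctrl) and in Sox2 late ICMs (942 to 3066 CPM in KO, 251 to 3615 CPM in Ctrl), and no trophectoderm marker was at 0 in any ICM group. The summed level of 14 primitive endoderm markers overlapped between KO and Ctrl in all 4 ICM comparisons, and at most 2 of them were at 0 in a group. Of 12 tested, 6 fell and 2 rose in Oct4-KO late ICMs, where Sox17 went from 78.2 to 0.725 CPM and Gata4 from 16.3 to 1.22 CPM while Gata6 and Dab2 rose, and 4 fell and 2 rose in Oct4-KO early ICMs. In the Sox2 line 1 rose early and 1 fell late. Of all genes, 8.85% fell and 9.25% rose in Oct4-KO late ICMs, 6.11% and 4.77% in early ones, and in the Sox2 line 1.57% rose early and 3.61% fell late.

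Fgf4 carries a well-known enhancer in its own 3′ untranslated region, in exon 3 of 3, where a Sox site lies 3 bases from an octamer site. It is shown because it holds the letters of a site for each factor's family, and binding there was not measured here. The site spans chr7:144864395-144864411 on the plus strand of mm10 (GENCODE vM21 annotation), 1454 bases after the stop codon, and capitals mark both sites in the 30 bases of chr7:144864389-144864418:
Fgf4 composite site: aaactcTTTGTTtggATGCTAATgggatac

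The composite TTTGTTNNNATGCNAAT, searched on both strands, was in 4 of 58797 protein-coding transcripts (0.0068%), of the genes Fgf4, Acot11 and Ptchd4, and in no other transcript of the 8 genes. The pattern has the letters and spacing of the Fgf4 site shown above, so its presence in Fgf4 was given in advance. Of the 8 genes, 6 had a promoter in the RefSeq table (GRCm38.p6). The 250 bases before the start of Fgf4 (chr7:144861136-144861385, plus strand), of its neighbour Fgf3 (chr7:144838362-144838611, plus strand) and of Fgfr2 (chr7:130266809-130267058, minus strand) are shown because Fgf4 and Fgf3 both fell in Sox2-KO ICMs, while Fgfr2 rose in the early ones. Capitals mark TATATATA and CCAAT on either strand:
Fgf4 upstream: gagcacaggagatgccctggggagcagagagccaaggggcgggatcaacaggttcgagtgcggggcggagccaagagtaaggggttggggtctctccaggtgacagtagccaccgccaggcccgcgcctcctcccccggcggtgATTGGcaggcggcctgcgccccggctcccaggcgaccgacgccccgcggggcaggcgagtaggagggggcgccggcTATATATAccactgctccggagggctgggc
Fgf3 upstream: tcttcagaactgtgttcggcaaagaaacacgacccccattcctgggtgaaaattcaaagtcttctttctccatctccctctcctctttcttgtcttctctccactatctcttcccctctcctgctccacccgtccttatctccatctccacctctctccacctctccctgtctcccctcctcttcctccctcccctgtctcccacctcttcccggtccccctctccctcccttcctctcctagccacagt
Fgfr2 upstream: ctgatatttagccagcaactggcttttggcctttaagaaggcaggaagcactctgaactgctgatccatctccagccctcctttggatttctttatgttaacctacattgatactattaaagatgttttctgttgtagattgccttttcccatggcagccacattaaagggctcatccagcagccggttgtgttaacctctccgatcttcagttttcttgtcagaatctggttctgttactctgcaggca

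The Fgf4 window had 71.2% G or C and 21 CpG sites, Fgf3 had 55.2% and 4 CpG sites, and Fgfr2 had 44% and 2, beside a median of 52.4% over 32851 promoters. TATATATA was in 0.737% of all such windows and among these genes in Fgf4 alone, and CCAAT (33.8% of windows) was in Fgf4 and Fgfr3. The octamer ATGCAAAT (1.6%) and the Sox core CTTTGTT (5.03%) were in the window of none of the 6 genes.

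Fgf4 was high in Ctrl ICMs and low in morulae and in the KO ICMs of both lines. Fgf4 in Oct4 Ctrl morulae lay between 4.72 and 54.9 CPM with a median of 14.3, in early ICMs between 72.5 and 152 CPM with a median of 108, and in late ICMs between 169.6 and 468 CPM with a median of 335. In the Sox2 line, Ctrl morulae held 4.85 to 14.3 CPM (median 10.3), early ICMs 70.6 to 563 CPM (median 129) and late ICMs 244 to 619 CPM (median 376). The ranges of morulae and early ICMs did not overlap in either line, as for 16.4% of genes in the Oct4 line and 18.6% in the Sox2 line, and those of early and late ICMs did not overlap in the Oct4 line (6.42% of genes).

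By edgeR's quasi-likelihood test, with genes called at an adjusted p under 0.05 and a log2 fold change of at least 1, Fgf4 rose from Ctrl morula to early ICM by 2.44 ± 0.38 (log2, SE) in the Oct4 line (adjusted p = 5.42e-08) and by 4.21 ± 0.40 in the Sox2 line (adjusted p = 9.98e-16). From early to late ICM it rose again in the Oct4 line, by 1.57 ± 0.32 (adjusted p = 5.51e-05). In the Sox2 line this step was 0.99 ± 0.31 (adjusted p = 0.0353), just under the fold minimum. It passed that minimum when counts were scaled by total UMIs (1.02), in the deposited rlog values (1.22) and with late ICMs of label set 2 alone (1.09).

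**Figure D1:**
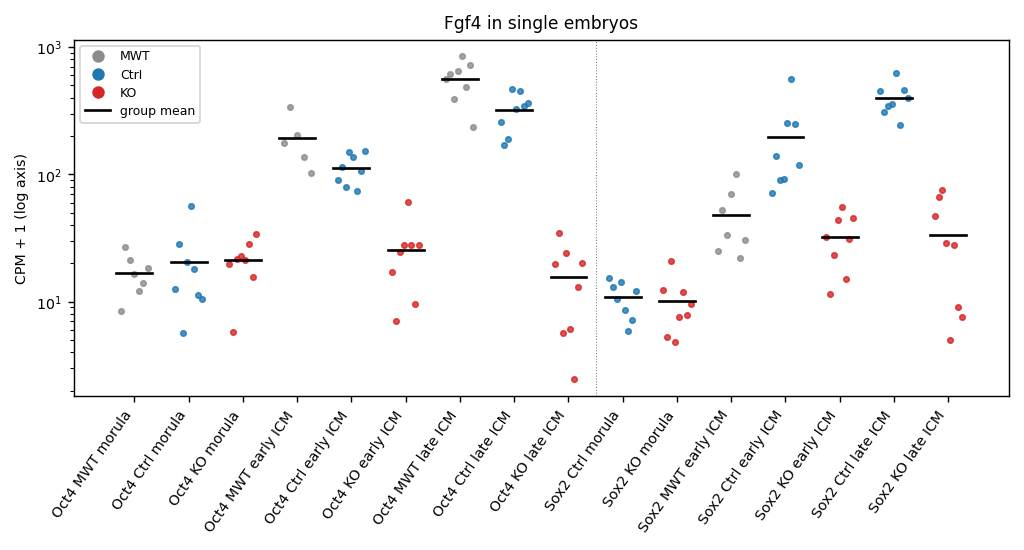
Fgf4 in each embryo, as CPM + 1 on a log axis, with 1 point an embryo, a bar at the group mean, MWT in grey, Ctrl in blue and KO in red. The 3 highest group means are those of Oct4 MWT, Sox2 Ctrl and Oct4 Ctrl late ICMs, and all KO ICMs lie below every Ctrl ICM of their line and stage.

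In morulae, Fgf4 was not called with the loss of Oct4 or Sox2, and the ranges of KO and Ctrl overlapped in both lines. Oct4-KO morulae held 4.82 to 32.8 CPM (median 20.4) and Sox2-KO morulae 3.86 to 19.97 CPM (median 7.72). The log2 fold changes were 0.15 ± 0.42 (95% interval -0.69 to 0.99, adjusted p = 0.955) and -0.15 ± 0.51 (95% interval -1.17 to 0.86, adjusted p = 1).

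In the ICM, Fgf4 fell with the loss of either factor. Oct4-KO early ICMs held 6.07 to 60.01 CPM (median 25.2), with a log2 fold change of -2.10 ± 0.37 (adjusted p = 6.38e-06), and Oct4-KO late ICMs held 1.45 to 33.6 CPM (median 15.3), with a log2 fold change of -4.35 ± 0.41 (adjusted p = 1.71e-15). Sox2-KO early ICMs held 10.4 to 54.5 CPM (median 30.5; log2 fold change -2.58 ± 0.36, adjusted p = 8.22e-08) and Sox2-KO late ICMs 4.04 to 74.4 CPM (median 27.5; -3.50 ± 0.36, adjusted p = 1.16e-12). In all 4 comparisons the highest KO embryo lay below the lowest Ctrl embryo, which held for 3.92% and 5.59% of genes, in either direction, at the early and late stage of the Oct4 line and for 1.23% and 2.3% in the Sox2 line. Whether each cell made less Fgf4 RNA or the ICM held fewer cells that make it cannot be told apart in whole ICMs. Of 12 epiblast markers tested besides the deleted gene, 8 fell in the early and 10 in the late ICMs of Oct4-KO embryos, where 6.11% and 8.85% of all genes fell, and 5 fell at each stage in Sox2-KO, where 1.69% and 3.61% of genes fell. Klf2, Tdgf1, Gdf3, Prdm14 and Utf1 fell in all 4 comparisons and so moved with Fgf4. Not every marker did. Mean Nanog in Ctrl and KO was 773 and 907 CPM in Oct4 early and 764 and 828 CPM in Sox2 early ICMs. In late ICMs Nanog was at 1041 and 425 CPM in the Oct4 line and 1006 and 981 CPM in the Sox2 line. Mean Klf4 was 268 and 350 CPM in Sox2 early ICMs and lower in KO in the other comparisons. The part of cell composition in the fall of Fgf4 was not tested.

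Over the 8 Oct4-KO late ICMs, 86 Fgf4 UMIs were counted against 1699 in the 8 Ctrl, a ratio per total UMIs of 4.51% (95% counting interval 3.59 to 5.60%). The ratio was 22.1% in Oct4-KO early ICMs, 16.4% in Sox2-KO early ICMs and 8.21% (7.11 to 9.43%) in Sox2-KO late ICMs. At least 1 Fgf4 UMI was counted in every KO embryo. The fall in the Oct4 line was larger in late than in early ICMs, by -2.25 ± 0.56 on the log2 scale (edgeR interaction, adjusted p = 0.00811), which was 1 call among 7 tested members beside 3.11% of all genes. In the Sox2 line the same difference was -0.92 ± 0.50 (95% interval -1.92 to 0.07, adjusted p = 0.515). The 2 lines did not differ detectably in the size of the fall, by 0.48 ± 0.52 in early ICMs (adjusted p = 0.644) and -0.84 ± 0.54 in late ICMs (adjusted p = 0.387), both as Oct4 minus Sox2.

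The late ICMs carry 1 of 2 set numbers in their labels. Within set 1 and set 2 alone, Fgf4 had log2 fold changes of -3.74 and -5.18 in the Oct4 line and of -2.71 and -5.07 in the Sox2 line, each of them called. The difference between sets, a test added after the values were seen, was -1.44 ± 0.80 (adjusted p = 0.733) and -2.35 ± 0.71 (adjusted p = 0.283). Leaving out any single Ctrl or KO embryo kept all 4 calls.

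Among the 16 groups the mean Fgf4 level was highest in Oct4 MWT late ICMs (561 ± 193 CPM, SD, n = 8), followed by Sox2 Ctrl late ICMs (397 ± 114) and Oct4 Ctrl late ICMs (321 ± 111). Next came Sox2 Ctrl early (196 ± 164), Oct4 MWT early (190.3 ± 90.8, n = 5) and Oct4 Ctrl early ICMs (112 ± 31.3). Then followed Sox2 MWT early ICMs (46.7 ± 28.7, n = 7), and the KO ICMs and all morulae had means between 9.06 and 32.4 CPM. Of all neighbours in this order, the intervals of mean ± SD overlapped except between Oct4 Ctrl early and Sox2 MWT early ICMs, whose ranges did overlap.

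Embryos with an intact maternal gene differed from Ctrl in Fgf4 in 1 of the 4 groups compared. Oct4 MWT morulae held 7.47 to 25.8 CPM (median 15.5), with a log2 fold change of -0.25 ± 0.45 over Ctrl (adjusted p = 0.96). The 5 Oct4 MWT early ICMs held 176, 338, 201, 136 and 101 CPM, and the Oct4 MWT late ICMs 233 to 850.3 CPM (median 584), with log2 fold changes over Ctrl of 0.74 ± 0.36 (adjusted p = 0.486) and 0.73 ± 0.31 (adjusted p = 0.229). Sox2 MWT early ICMs, in contrast, held less Fgf4 than Sox2 Ctrl early ICMs, 20.9 to 98.8 CPM (median 32.2), with a log2 fold change of -2.05 ± 0.36 (adjusted p = 3.59e-05). Fgf4 was the 1 member called in that comparison, beside 2.58% of genes. The Fgf4 range of the Sox2 MWT early ICMs overlapped that of Sox2-KO early ICMs (10.4 to 54.5 CPM). Mean Pou5f1 was 116 CPM in these MWT and 58.5 CPM in Ctrl ICMs, and mean Sox2 was 109 CPM in both. Fgfr2 was 93.4 ± 25.1 CPM in these MWT and 52.7 ± 21.8 CPM in Ctrl ICMs (0.84 ± 0.26, adjusted p = 0.0332, under the fold minimum). The summed primitive endoderm markers were 1286 to 1909 CPM against 575 to 1423 CPM in Ctrl, those of trophectoderm 355 to 1398 CPM against 150 to 679 CPM and those of epiblast 3210 to 5299 CPM against 3608 to 6925 CPM. At most 1 marker of each list was at 0 in either group, and the part of these cell types in the level of Fgf4 was not tested.

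Fgf3, a ligand gene that lies next to Fgf4 on chromosome 7 (mm10 144838083 to 144844436), was low throughout. The highest group mean was in Oct4-KO morulae, 28.8 ± 5.75 CPM (n = 8), where all 8 embryos (21.6 to 38.8 CPM, median 28.0) lay above the 8 Ctrl morulae (6.36 to 19.2 CPM, median 12.9). The difference of 1.22 ± 0.43 (log2) did not pass the test over all genes (adjusted p = 0.145), and 0.477% of genes had ranges that did not overlap in this comparison. From Oct4 Ctrl morulae to early ICMs (0 to 9.73 CPM, median 2.89) Fgf3 fell, with a log2 fold change of -1.86 ± 0.53 (adjusted p = 0.00215), and in the Sox2 line it was at 4.64 ± 1.85 and 4.27 ± 0.966 CPM (adjusted p = 0.793).

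Fgf3 fell in Sox2-KO ICMs. In early ICMs it was at 0 in 5 of 8 KO embryos and at most at 2.58 CPM, against 2.46 to 5.52 CPM (median 4.54) in Ctrl, which is 4 UMIs against 32 in all (ratio 12.6%, 95% counting interval 3.23 to 35.4%), and the fitted log2 fold change was -2.63 ± 0.81 (adjusted p = 0.0289). In late ICMs it was 0 to 6.97 CPM (median 0.588) against 1.18 to 21.3 CPM (median 7.72), or 14 UMIs against 63 (-1.91 ± 0.61, adjusted p = 0.0219). The ranges overlapped at both stages, and every KO embryo lay below the Ctrl median.

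These calls of Fgf3 rest on few molecules. The early call was lost without KO embryo 2, 8, 10, 17 or 21 (adjusted p from 0.0522 to 0.0599) and with counts thinned to the lowest total (adjusted p = 0.117), and the late call was lost without Ctrl embryo 2-4 or 2-6 or KO embryo 1-3 or 2-3 (adjusted p from 0.0515 to 0.0807) and within label set 1 (-0.78, adjusted p = 0.671). In the rlog values both changes of Fgf3 were under the fold minimum, at -0.78 and -0.90. In Oct4-KO ICMs Fgf3 was 2.08 to 7.78 CPM early and 0 to 31.9 CPM late, with no call (0.54 ± 0.59 and 0.75 ± 0.64). The late value rests on KO embryo 1-8, which held 22 of the 31 UMIs, and was -0.85 without it. The effect of the knockout on Fgf3 differed between the lines by 3.18 ± 1.00 in early ICMs (adjusted p = 0.0318) and by 2.66 ± 0.88 in late ICMs (adjusted p = 0.042), as Oct4 minus Sox2. The early difference had an adjusted p of 0.13 with thinned counts, and the late one 0.075 with limma on the rlog values. Leaving out each embryo in turn, an alternative added after the values were seen, the early difference passed in 27 of 32 runs and was lost without Oct4-KO embryo 11 or Sox2-KO embryo 2, 10, 17 or 21 (adjusted p from 0.0514 to 0.0571). The late one passed in 15 of 32 runs. It was 1.05 without Oct4-KO embryo 1-8 (adjusted p = 0.584), and was also lost without any of Oct4 Ctrl 1-3, 1-4, 1-6, 2-1, 2-4 and 2-9, Oct4-KO 1-5, Sox2 Ctrl 1-5, 2-4 and 2-6, and Sox2-KO 1-1, 1-3, 1-6, 2-3, 2-8 and 2-10 (adjusted p from 0.0508 to 0.0907).

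Fgf8, a ligand best known from gastrulation, had 11 UMIs over all embryos and at most 1 in any embryo. It was at 0 in 8 of the 16 groups, did not pass the filter on low counts and was not tested, and a count of 0 allows up to 3 UMIs in an embryo. The other 7 genes passed the filter.

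Fgfr2, the receptor tied to primitive endoderm and trophectoderm, rose in the knockout ICMs where it was called, while Fgf4 fell. In the Oct4 line, Ctrl late ICMs held 20.9 to 94.99 CPM of Fgfr2 (median 61.5) and KO late ICMs 85.3 to 205 CPM (median 144). All 8 KO embryos lay above the Ctrl median and the ranges overlapped between 85.3 and 94.99 CPM. The log2 fold change was 1.34 ± 0.25 (adjusted p = 7.78e-06), and within label sets it was 1.30 and 1.23. In Oct4-KO early ICMs Fgfr2 was 95.2 to 146 CPM (median 116) against 59.9 to 132 CPM (median 81.7), a difference of 0.48 ± 0.24 that was not called (adjusted p = 0.142).

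In the Sox2 line the call was in early ICMs. Ctrl embryos held 16.0 to 81.5 CPM of Fgfr2 (median 59.5) and KO embryos 89.9 to 165 CPM (median 139). The ranges did not overlap, as for 1.23% of genes, and Fgfr2 rose by 1.37 ± 0.24 (log2, adjusted p = 2.88e-05). In Sox2 late ICMs the values were 30.3 to 103 CPM (median 40.1) in Ctrl and 10.1 to 141 CPM (median 88.6) in KO, with 0.62 ± 0.25 and no call (adjusted p = 0.0795). The 2 label sets went apart there: the 4 KO embryos of set 1 lay between 106 and 141 CPM (1.27, adjusted p = 0.00628) and those of set 2 between 10.1 and 71.1 CPM (-0.38, adjusted p = 0.552). The test of this difference between sets, added after the values were seen, gave -1.65 ± 0.45 (adjusted p = 0.233).

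**Figure D2:**
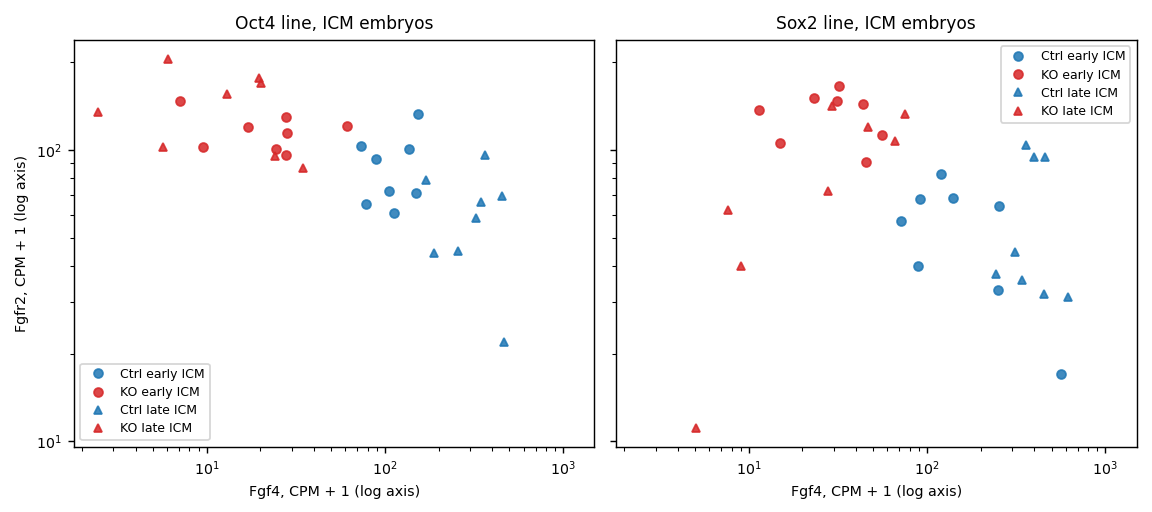
Fgfr2 against Fgf4 in each Ctrl and KO ICM of the Oct4 line (left) and the Sox2 line (right), both as CPM + 1 on log axes, with circles for early and triangles for late ICMs, Ctrl in blue and KO in red. The KO embryos sit to the left, at lower Fgf4, and in Fgfr2 all 8 Sox2-KO early ICMs lie above every Sox2 Ctrl early ICM, while the ranges of KO and Ctrl overlap in Sox2 late and in Oct4 early and late ICMs.

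Markers of trophectoderm, a tissue that also uses Fgfr2, were counted in the same embryos. Of the 13 tested, 11 rose in the late ICMs of Oct4-KO embryos, where 9.25% of all genes rose, and 6 rose and 1 fell in the early ICMs of Sox2-KO embryos, where 1.57% rose. Where Fgfr2 was not called, 3 rose and 2 fell in Oct4-KO early and 4 rose and 1 fell in Sox2-KO late ICMs, beside 4.77% and 6.11% of all genes in the former and 3.34% and 3.61% in the latter. Of the primitive endoderm markers, the other tissue tied to Fgfr2, 2 of 12 rose and 6 fell in Oct4-KO late ICMs and 1 rose in Sox2-KO early ICMs. The part of these tissues in the level of Fgfr2 was not tested. The annotated span of Fgfr2 in the deposited table (chr7:130162451-133123350) runs over 69 other genes, 30 of them coding, so its counts are less certain than those of the other members. Over the 16 groups Fgfr2 and Fgf4 had a Pearson r of -0.87 between group means of log2(CPM + 1), a description over groups that share stages and mothers.

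Fgfr1, the receptor found throughout the ICM, was higher in ICMs than in morulae and was not called in any knockout. In Sox2 Ctrl morulae it was 26.5 to 64.6 CPM (median 44.2) and in early ICMs 93.5 to 216 CPM (median 144). The ranges did not overlap, as for 18.6% of genes, and the rise was 1.67 ± 0.21 (adjusted p = 5.04e-11). In the Oct4 line Fgfr1 was 47.9 to 78.4 CPM (median 56.5) against 85.1 to 158 CPM (median 112). These ranges did not overlap either (16.4% of genes), but the 0.81 ± 0.21 (adjusted p = 7.02e-04) was under the fold minimum. Sox2-KO late ICMs held 96.6 to 191 CPM (median 147) against 62.0 to 192 CPM (median 84.6) in Ctrl, which was 0.63 ± 0.20 (adjusted p = 0.0234) and again under that minimum.

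The highest Fgfr1 group mean was in Sox2 MWT early ICMs, 252 ± 46.9 CPM (n = 7), against 149.7 ± 39.3 CPM in Ctrl (0.77 ± 0.20, adjusted p = 0.00716, under the fold minimum). In the comparisons of KO with Ctrl other than Sox2 late ICMs, Fgfr1 differed by between -0.11 and 0.25. A noncoding gene, Gm16159, lies antisense to Fgfr1 at the locus (chr8:25513654-25575718), as G630022F23Rik does at Fgfr3 (chr5:33721674-33737068), and whether counting used strand is not given in the sources used here.

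Fgfr3 and Fgfr4, receptors for the same ligands, were higher in Ctrl morulae than in Ctrl ICMs. Fgfr3 was 14.2 to 34.1 CPM (median 17.4) in Oct4 Ctrl morulae and 0 to 5.10 CPM (median 1.77) in early ICMs, and 9.69 to 55.1 CPM (median 27.6) against 0 to 5.19 CPM (median 3.13) in the Sox2 line. The ranges did not overlap in either line, as for 16.4% of genes in the Oct4 line and 18.6% in the Sox2 line. Fgfr3 fell by 3.41 ± 0.56 (log2, adjusted p = 2.25e-07) and 3.44 ± 0.50 (adjusted p = 5.2e-09). Fgfr4 fell as well, by 2.96 ± 0.51 from 6.72 to 21.7 CPM down to 0 to 3.65 CPM in the Oct4 line (adjusted p = 6.38e-07), and by 2.73 ± 0.58 from 3.08 to 10.4 CPM down to 0 to 3.27 CPM in the Sox2 line (adjusted p = 3.45e-05).

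In the comparisons of KO with Ctrl, Fgfr3 was called nowhere, with 9 to 15 UMIs over the 8 embryos of each KO ICM group. Fgfr4 was called in Oct4-KO late ICMs, where all 8 embryos had it, at 2.33 to 14.5 CPM (median 6.38), against 0 to 9.37 CPM (median 0.684) in Ctrl. That is 46 UMIs against 11, a ratio of 372% (190.0 to 797%), and a log2 fold change of 1.94 ± 0.58 (adjusted p = 0.00551). The call was lost within label set 1 (1.22, adjusted p = 0.224), was kept in set 2 (3.86, adjusted p = 0.00944), and the change was 0.93 in the rlog values. In Sox2-KO late ICMs Fgfr4 was at 0.916 ± 1.39 CPM against 2.39 ± 3.96 CPM (-1.12 ± 0.74), and the effect of the knockout on Fgfr4 differed between the lines by 3.07 ± 0.95 (Oct4 minus Sox2, adjusted p = 0.0267). Sox2 Ctrl embryo 2-6 held 10 of the 16 Fgfr4 UMIs of its group. Without it the Sox2 change was -0.02 and the difference between lines 1.95 (adjusted p = 0.304), while the difference passed in 31 of the 32 runs that left out 1 embryo. The Oct4 change stayed called in all 16 runs and was 3.05 without Ctrl embryo 1-9, which held 7 of the 11 Ctrl UMIs.

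**Figure D3:**
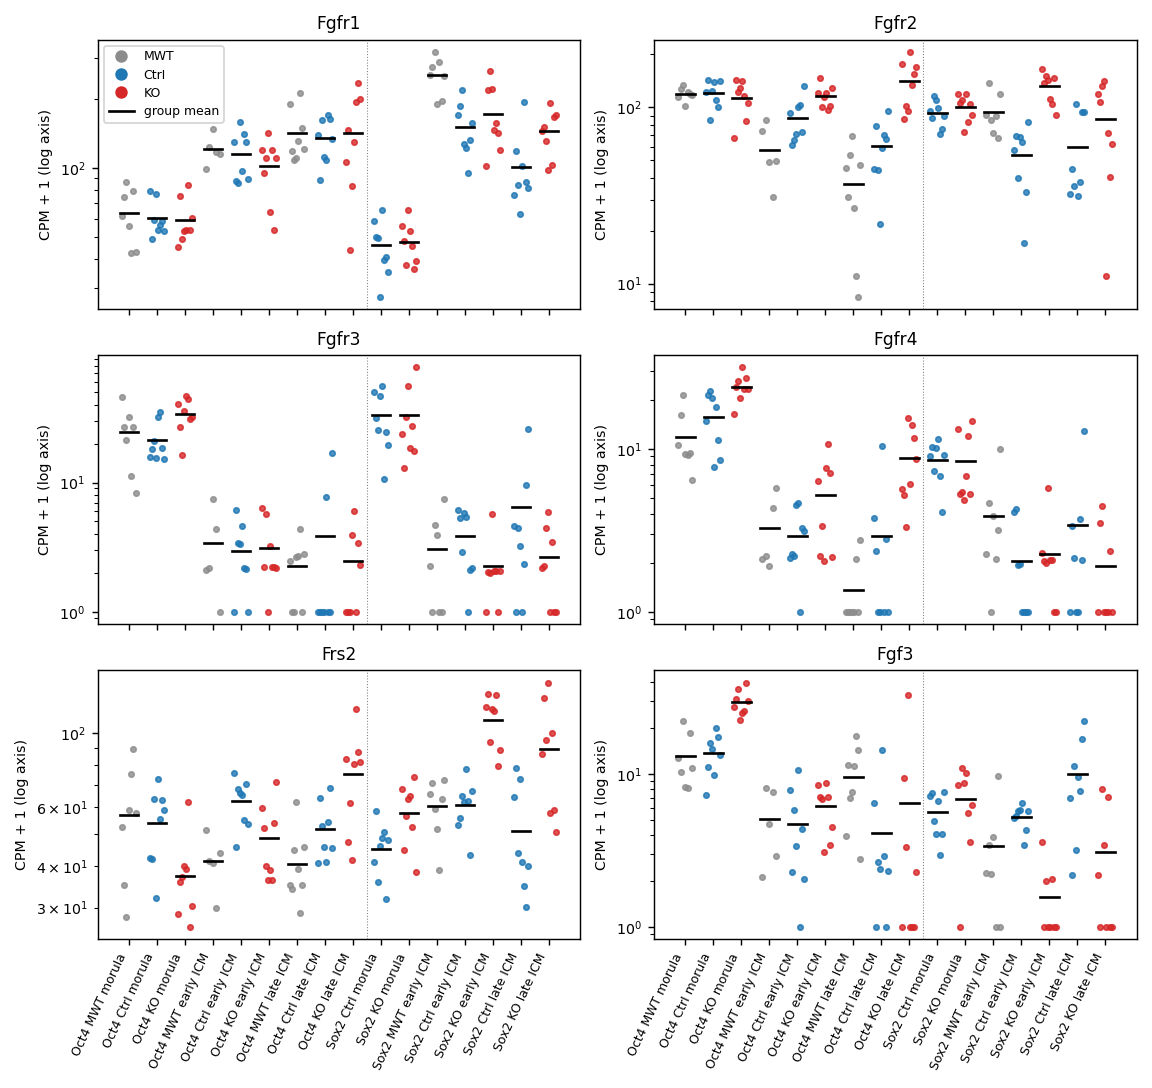
Fgfr1, Fgfr2, Fgfr3, Fgfr4, Frs2 and Fgf3 in each embryo, as CPM + 1 on log axes whose ranges differ between panels, with 1 point an embryo, a bar at the group mean, MWT in grey, Ctrl in blue and KO in red. Fgfr3 is highest in morulae, Fgfr1 is lowest there, and Fgfr2 and Frs2 are higher in KO than in Ctrl Sox2 early ICMs.

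Frs2, the adaptor that links the receptors to the RAS cascade, was counted in every embryo, with Ctrl group means between 44.0 and 61.4 CPM. In Sox2 early ICMs it was 42.0 to 77.3 CPM (median 61.3) in Ctrl and 78.7 to 129.955 CPM (median 116) in KO, with no overlap (as for 1.23% of genes). In late ICMs it was 29.0 to 77.7 CPM (median 41.4) against 49.5 to 141 CPM (median 89.9). Both differences were 0.93 ± 0.18 (adjusted p = 1.09e-04 and 9.05e-05), just under the fold minimum. Oct4-KO late ICMs held 40.6 to 117 CPM (median 80.3) against 39.9 to 67.2 CPM (median 48.2) in Ctrl, a difference of 0.66 ± 0.19 (adjusted p = 0.00402).

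In Oct4-KO early ICMs Frs2 was instead 35.4 to 70.2 CPM (median 44.99) against 44.6 to 74.8 CPM (median 64.8), or -0.30 ± 0.19 (adjusted p = 0.269). The effect of the knockout on Frs2 in early ICMs therefore differed between the lines, by -1.23 ± 0.26 (Oct4 minus Sox2, adjusted p = 5.24e-04). Beside Fgf3 this made 2 of 7 tested members that differed between lines in early ICMs, where 5.52% of genes did, and Fgf3 and Fgfr4 made 2 in late ICMs, where 6.3% of genes did. In the Sox2 line, the difference of the effect between early and late ICMs was called for none of the 7 members and for 0.0427% of genes by edgeR, with 1494 genes at an unadjusted p under 0.05 and no member called by DESeq2.

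**Figure D4:**
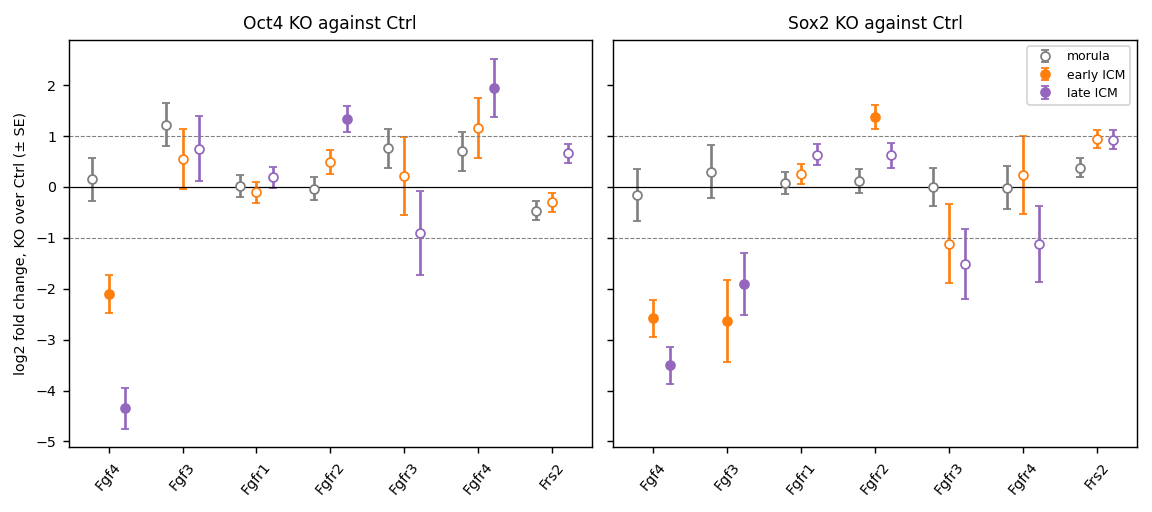
log2 fold change of KO over Ctrl for the 7 tested members in the Oct4 line (left) and the Sox2 line (right), with error bars of 1 SE, grey for morulae, orange for early and purple for late ICMs. Filled points were called, dashed lines mark a log2 fold change of 1 in either direction, and the 9 filled points include Fgf4 in all 4 ICM comparisons.

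Counted over the 7 tested members, no member was called in KO morulae by edgeR or DESeq2, where 0.804% of genes were called in the Oct4 line and 0.00712% in the Sox2 line (1707 and 618 genes had an unadjusted p under 0.05). In Oct4-KO ICMs, 1 member was called early beside 10.9% of genes, and 3 late beside 18.1% of genes. In Sox2-KO ICMs, 3 members were called early beside 3.27% of genes, and 2 late beside 6.95%. Without the fold minimum, 4 members passed in Sox2-KO late ICMs beside 13.8% of genes, 3 in Sox2 MWT early ICMs (6.33%), 2 from early to late ICM in Sox2 Ctrl (7.21%) and 2 in the difference of the Oct4-KO effect between stages (4.46%). The members' median log2 fold change was 0.21 early and 0.66 late in the Oct4 line and 0.24 and -1.12 in the Sox2 line, while the median over all genes was between -0.01 and 0.01. The -1.12 was the change of Fgfr4 itself, which was -0.02 without Sox2 Ctrl embryo 2-6. In that comparison Fgfr1, Fgfr2 and Frs2 were higher in KO and Fgf4, Fgf3 and Fgfr3 lower.

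In the ICM knockouts the ranges did not overlap for Fgf4 in all 4 comparisons, beside 3.92% and 5.59% of genes in Oct4 early and late and 1.23% and 2.3% in Sox2 early and late ICMs, and for Fgfr2 and Frs2 in Sox2 early ICMs. Between Ctrl morulae and early ICMs, 4 members were called in each line beside 29% of genes in the Oct4 line and 31.9% in the Sox2 line. From early to late ICM, Fgf4 was the 1 member called in the Oct4 line (15.6% of genes). None was called in the Sox2 line by edgeR or DESeq2, where 2.9% of genes were and 2955 had an unadjusted p under 0.05. The comparisons of Oct4 MWT with Ctrl called no member by either tool, beside 0.0646%, 0.373% and 0.797% of genes in morulae, early and late ICMs (1005, 1326 and 1939 genes at an unadjusted p under 0.05).

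Of 82 other genes of the pathway, 59 were tested. In Oct4-KO early ICMs 5 rose and 7 fell, beside 4.77% of all genes that rose and 6.11% that fell, and in late ICMs 8 rose and 9 fell (9.25% and 8.85% of genes). In Sox2-KO early ICMs 2 rose and 4 fell (1.57% and 1.69%), and in late ICMs 6 rose and 6 fell (3.34% and 3.61%). None was called in KO morulae by edgeR.

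Of the 4 other ligands tested, Fgf10, which binds an isoform of Fgfr2, fell in all 4 ICM comparisons, and Fgf1 was called higher in Sox2-KO late ICMs. It went from 41.4 to 10.5 CPM in Oct4-KO early ICMs (-1.88 ± 0.44, adjusted p = 6.65e-04) and from 36.2 to 1.48 CPM in Sox2-KO early ICMs (-4.53 ± 0.60, adjusted p = 2.1e-08). In late ICMs it went from 44.4 to 7.10 CPM in the Oct4 line and from 34.0 to 7.89 CPM in the Sox2 line.

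Heparan sulfate, which holds FGF to its receptor, is built by Ext1 and trimmed by Sulf2. Of 10 enzymes tested, 1 rose and 1 fell in Oct4-KO early ICMs, and 2 fell in each of Oct4-KO late, Sox2-KO early and Sox2-KO late ICMs. The shares of all genes that rose and fell in these comparisons were 4.77% and 6.11%, 9.25% and 8.85%, 1.57% and 1.69%, and 3.34% and 3.61%. Ext1 fell in all 4 ICM comparisons, for example from 33.4 to 8.63 CPM in Oct4-KO late ICMs (-1.81 ± 0.32, adjusted p = 3.8e-06). Sulf2 fell in Sox2-KO ICMs, from 66.4 to 30.6 CPM early and from 119 to 44.2 CPM late, and Hs6st1, a sulfotransferase, fell in Oct4-KO late ICMs from 146 to 53.3 CPM. Of the other enzymes, Ndst1 differed by 0.73 (adjusted p = 0.0369, under the fold minimum) and Ext2 by 0.50 in Oct4-KO late ICMs, neither of them called. Of 9 coreceptors and FGF binding proteins tested, 1 rose in Oct4-KO early ICMs, 2 rose and 1 fell in Oct4-KO late ICMs, 1 rose in Sox2-KO late ICMs and edgeR called none in Sox2-KO early ICMs, where 3 had an unadjusted p under 0.05. The cell surface proteoglycan Sdc4 rose in Oct4-KO late ICMs from 161.5 to 585 CPM (1.97 ± 0.25, adjusted p = 2.3e-10). The other called genes of both lists, all under 20 CPM and named after their values were seen, were Fgfbp3 (0.227 to 4.34 CPM) and Flrt3 (13.1 to 0.307 CPM) in Oct4-KO late ICMs, Gpc4 (2.92 to 11.8 CPM) and Hs3st3b1 (6.34 to 16.2 CPM) in Oct4-KO early ICMs, and Sdc1 (7.41 to 14.96 CPM) in Sox2-KO late ICMs.

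Of the 21 genes of adaptors and the RAS and ERK cascade, 1 fell in Oct4-KO early ICMs, 2 rose and 1 fell in Oct4-KO late ICMs, and 1 rose at each stage in Sox2-KO ICMs. Of all genes, 10.9%, 18.1%, 3.27% and 6.95% were called in these 4 comparisons. Plcg1, a phospholipase that binds activated receptors, fell in Oct4-KO early ICMs from 31.2 to 13.2 CPM (-1.15 ± 0.25, adjusted p = 2.7e-04). Sos1, the RAS exchange factor recruited by Grb2, rose in Sox2-KO early ICMs from 49.1 to 109.9 CPM (1.23 ± 0.17, adjusted p = 1.93e-07), and Cbl, which marks receptors for degradation, rose in Oct4-KO late ICMs from 35.4 to 67.2 CPM.

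Of the 15 tested feedback genes and ERK targets, 3 rose and 4 fell in Oct4-KO early ICMs, and 4 and 4 in late ICMs, while it was 1 and 1 for early and 3 and 3 for late ICMs of Sox2-KO embryos. Over all genes, 4.77% rose and 6.11% fell in the first of these comparisons, 9.25% and 8.85% in the second, 1.57% and 1.69% in the third and 3.34% and 3.61% in the last. Etv5, an ETS factor induced by FGF, fell from 101 to 18.1 CPM in Oct4-KO early ICMs and from 225 to 11.3 CPM in late ICMs (-4.22 ± 0.30, adjusted p = 1.45e-21), and from 340.0 to 131 CPM in Sox2-KO late ICMs (-1.26 ± 0.23, adjusted p = 1.95e-05). Egr1, an immediate early gene, fell in both Oct4-KO stages and in Sox2-KO early ICMs, there from 143 to 32.2 CPM. Spry4, a feedback inhibitor, was 22.7 CPM in Sox2 Ctrl and 7.54 CPM in Sox2-KO late ICMs (-1.47 ± 0.51, adjusted p = 0.0407).

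Other genes of the same list rose. Dusp4, a phosphatase that acts on ERK, rose from 4.54 to 32.2 CPM in Oct4-KO early ICMs (2.85 ± 0.57, adjusted p = 6.55e-05) and from 5.10 to 36.0 CPM in late ICMs. Ier3, an early response gene, rose in Sox2-KO early ICMs from 5.87 to 22.6 CPM (2.00 ± 0.62, adjusted p = 0.0304) and in late ICMs from 4.91 to 20.1 CPM. Spred1, an inhibitor of RAS signalling, rose in Oct4-KO early ICMs from 9.11 to 22.1 CPM, and Phlda1 rose in Sox2-KO late ICMs from 88.5 to 202 CPM. All of these ICMs had been grown with the MEK inhibitor.

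**Figure D5:**
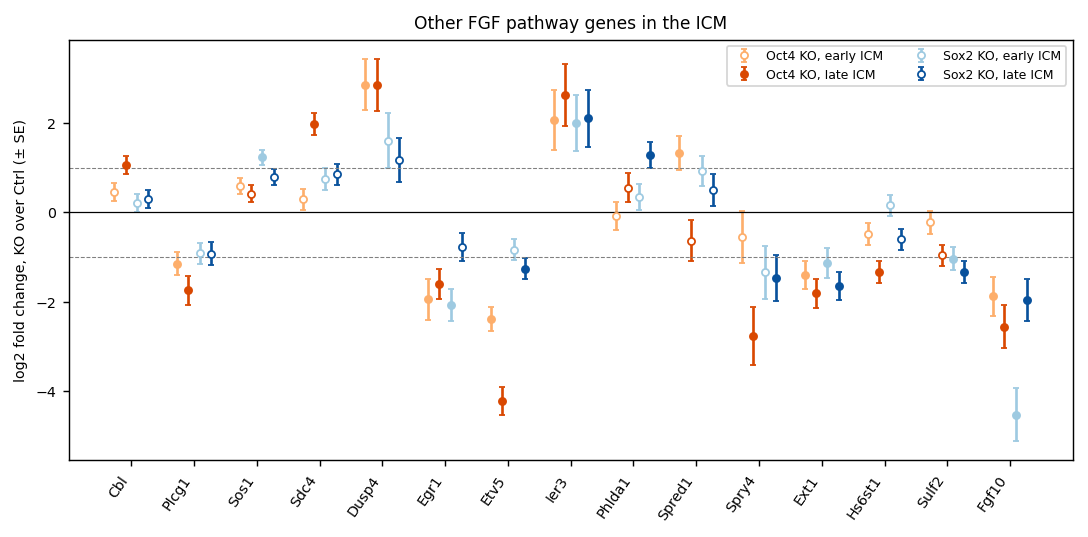
log2 fold change of KO over Ctrl in early and late ICMs for the 15 other pathway genes named by rule, with error bars of 1 SE, light colours for early and dark for late ICMs, orange for the Oct4 line and blue for the Sox2 line. Filled points were called and dashed lines mark a log2 fold change of 1 in either direction. Fgf10 and Ext1 lie below 0 in all 4 comparisons, and Ier3 and Dusp4 above 0.

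The genes whose group means of log2(CPM + 1) over the 16 groups were most like those of each member, among 7589 genes, were found by Pearson's r. They were Gabbr1 (0.96), Tmc7 (0.96) and Morc1 (0.96) for Fgf4, and Rps6kb2 (0.92), Yju2 (0.91) and Pax6 (0.90) for Fgf3. For the receptors they were Ugdh (0.94), Hist1h2ag (0.94) and Tmem205 (0.94) for Fgfr1, Ube2e1 (0.87), Arhgdig (0.86) and Lrp2 (0.84) for Fgfr2, Ccne1 (0.99), Epm2a (0.98) and Timm8a2 (0.98) for Fgfr3, and Med10 (0.95), Arhgap1 (0.95) and Smtn (0.95) for Fgfr4. For Frs2 they were Cxadr (0.85), Shroom3 (0.85) and Rfk (0.83).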

How the data were processed

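Single embryos were profiled by 3′-end RNA-seq with UMIs. The deposited UMI counts had been made by the authors with UMI-tools, Cutadapt, TopHat2 with Bowtie2 (mm10, GENCODE vM23), featureCounts and TRUmiCount. The deposited log2 values are their DESeq2 rlog transform of these counts. Versions and strand settings are not given in the sources used here. Counting UMIs at the 3′ end removes PCR copies and keeps no isoforms. Spike-ins were not used here.

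Counts were tested with edgeR 4.0.16 (R 4.3.3), TMM scaling and the quasi-likelihood test, on all 96 embryos of the 12 Ctrl and KO groups. The 14053 genes with UMIs in 0.5 or more of the embryos of a stage entered. MWT embryos were compared in a fit of all 16 groups (13923 genes). A gene was called at a Benjamini-Hochberg adjusted p under 0.05 over all genes tested and a log2 fold change of 1 or more in either direction. Errors are SE unless named, intervals are 95%, and intervals of UMI ratios are exact and cover counting error only. Each replicate is 1 embryo, and embryos of a group may share a litter. Embryos held 525755 to 1344035 UMIs.

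The 8 genes were named in every comparison. Other pathway genes were named when called in an ICM knockout and reaching 20 CPM in one group's mean, the 4 of largest change for each list and comparison, and the 3 most similar genes per member were taken by Pearson's r. The members and lists were chosen with earlier results of these data known. Alternatives were DESeq2 1.42.0, limma 3.58.1 on the rlog values, scaling by total UMIs, no filter, thinned counts, each label set of the late ICMs, a block on shared embryo numbers and leaving out each ICM embryo in turn. Whether numbers shared by Ctrl and KO pair embryos is not known. Of 14 pairs, 3 had correlated deviations over 0.1 (range -0.07 to 0.20). In 6 of them the Ctrl embryo correlated best with the KO embryo of its own number. Loci and sequences came from GENCODE vM21 and RefSeq GRCm38.p6, the same assembly as mm10.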

Additional observations from a re-analysis of the deposited data

Results flagged for a closer look

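Each member was checked in each group where its mean was at least 10 CPM, which made 73 sets of values. In 5 of these sets 1 embryo stood apart from the others of its group by Dixon's criterion. Chance gives this in about 1 set in 20, and sets of different members share embryos. For Fgf4 these were Oct4 Ctrl morula 15 at 54.9 CPM, Oct4-KO early ICM 11 at 60.01 CPM and Sox2 Ctrl early ICM 10 at 563 CPM. For Fgfr1 it was Sox2 Ctrl late ICM 2-3 at 192 CPM, and for Frs2 it was Oct4-KO morula 7 at 61.2 CPM.

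A test of the difference itself set the effect of the knockout apart between lines or stages for 4 members. As Oct4 minus Sox2, the effect on Fgf3 differed by 3.18 in early and 2.66 in late ICMs, that on Frs2 by -1.23 in early ICMs and that on Fgfr4 by 3.07 in late ICMs. In the Oct4 line, the effect on Fgf4 was lower in late than in early ICMs by -2.25 on the log2 scale. Without 1 embryo these differences kept their calls in 27 of 32 runs for Fgf3 early, 15 for Fgf3 late, 31 for Fgfr4 late and all 32 for Frs2 early and Fgf4. Fgf3 late was 1.05 without Oct4-KO embryo 1-8 and Fgfr4 late 1.95 without Sox2 Ctrl embryo 2-6.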

How the results depend on the processing

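No direction of a called member turned under any alternative. Of the results for single members under the alternatives, 2182 stayed on their side of the thresholds, 30 passed them in addition, 44 lost them and 68 values without a call changed sign. Fgf4 stayed called in all 4 ICM comparisons of KO with Ctrl under each alternative run. With the adjusted p alone, 4 members passed in Sox2-KO late ICMs, 2 in Sox2 Ctrl from early to late ICM, 2 in the difference of the Oct4-KO effect between stages and 3 in Sox2 MWT early ICMs. In Sox2 Ctrl from early to late ICM, 1 member passed with total UMIs, with rlog values and with label set 2. Thinned counts left 1 in the difference between lines in early ICMs, rlog values left 1 in Sox2-KO late ICMs and 1 in the difference between lines in late ICMs, and label set 2 alone gave 4 in Sox2-KO late ICMs. Without 1 embryo, the members called were 1 to 1 and 3 to 3 in Oct4-KO early and late ICMs, 2 to 3 and 1 to 3 in Sox2-KO early and late ICMs, and 0 to 0 in Oct4 MWT early ICMs, and, added after the values were seen, 1 to 3 and 0 to 2 in the difference between lines in early and late ICMs, 1 to 2 in the difference of the Oct4-KO effect between stages and 0 to 0 in that of the Sox2-KO effect. DESeq2, the fit of all 16 groups and no filter left every count of members called within 1.5 times.

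The replicate block, fitted on the 28 embryos whose numbers Ctrl and KO share, left 1 member called in Oct4-KO late ICMs. These share 1 number, so that fit compares 1 KO with 1 Ctrl embryo and says nothing on pairing there. With 4 shared numbers at each stage, it left Fgf3 uncalled in Sox2-KO early (adjusted p = 0.126) and late ICMs (adjusted p = 0.124) and put Frs2 past the fold minimum in both, and 2, 3, 6 and 9 other pathway genes were called in place of 12, 17, 6 and 12. Oct4 early ICMs share 2 numbers, and every blocked count uses fewer embryos than the fit without the block. The causes of the other changes were not tested. Of these embryos, 6 of 14 pairs correlated best with their own number, and Sox2 morulae share no number. The other pathway counts ranged from 7 to 16, 10 to 27, 4 to 10 and 7 to 18 under the remaining alternatives. Depth limits Fgf3, Fgf8, Fgfr3 and Fgfr4, which had few UMIs in an ICM. Over all genes, the adjusted p alone gave 2950 calls in place of 1529 in Oct4-KO early, 4450 in place of 2544 in Oct4-KO late, 989 in place of 459 in Sox2-KO early and 1935 in place of 977 in Sox2-KO late ICMs. The rlog values gave 611, 1236, 207 and 439 there. The block gave 444, 490 and 519 in the first, second and last of these, label set 2 gave 1387 in Oct4-KO late and label set 1 gave 422 in Sox2-KO late ICMs. Between Ctrl stages, the adjusted p alone and the rlog values gave 6748 and 1935 in place of 4080, and 4560 and 857 in place of 2187, in the Oct4 line, and 7270 and 2248 in place of 4489, and 1013 and 156 in place of 407 (172 with label set 1), in the Sox2 line. In Oct4-KO morulae the 113 calls became 206 with the adjusted p alone, 73 with thinned counts and 56 with rlog values. For MWT against Ctrl, the adjusted p alone and the rlog values gave 89 and 29 in place of 52 in Oct4 early, 220 and 71 in place of 111 in Oct4 late, and 881 and 140 in place of 359 in Sox2 early ICMs, and no filter gave 15 in place of 9 in Oct4 morulae. The difference of the Sox2-KO effect between stages had 6 calls, or 3 with all 16 groups, 10 with rlog values, 39 with DESeq2 and 0 to 19 without 1 embryo.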

Other observations

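Of the other FGF ligands, Fgf1, Fgf10, Fgf13 and Fgf18 were tested, and the first 3 changed between Ctrl morula and early ICM in both lines, a step at which 29% of all genes were called in the Oct4 line and 31.9% in the Sox2 line. Fgf10 rose from 1.90 to 41.4 CPM in the Oct4 line (adjusted p = 2.76e-10) and from 1.40 to 36.2 CPM in the Sox2 line (adjusted p = 6.82e-11). Fgf1, a ligand of all FGF receptors, fell from 9.43 to 0.148 CPM and from 7.04 to 0 CPM, and Fgf13, a member of the family that stays inside the cell, fell from 9.33 to 0.148 CPM and from 12.4 to 0.259 CPM, all 4 called by edgeR. In Sox2-KO late ICMs Fgf1 was called with a mean of 1.67 CPM while no Ctrl embryo held a UMI of it. Fgf18 was called in the Sox2 line alone, from 1.65 CPM in Ctrl morulae to 0.148 CPM in early ICMs (edgeR adjusted p = 0.00304), and the difference between lines was not tested.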
